A study of Mus musculus with 2 samples.

Results

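The genes of cholesterol and fatty acid synthesis were examined in mouse embryonic fibroblasts (MEFs) with and without the Lats2 kinase. A set of 31 genes was taken by name from the array files. They are 7 genes of the mevalonate and isoprenoid steps, 11 of the steps from squalene to cholesterol, 5 of the SREBP system and sterol transport, and 8 of fatty acid synthesis, elongation and desaturation. All 31 were on the array, with 61 probes. For 30 of them a ratio could be had from both arrays, out of 27579 gene names with such a ratio.

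The KO sample was total RNA from embryonic fibroblasts of LATS2-/- C57BL/6J mice, and the WT sample was total RNA from LATS2+/+ fibroblasts of the same strain. Neither was treated, and per the study's methods MEFs were grown in medium with fetal bovine serum. Both RNAs were hybridised together to 2 Agilent whole mouse genome arrays, with KO in Cy5 and WT in Cy3 on the first and the dyes exchanged on the second. The embryonic stage, the number of embryos behind each RNA and the growth state at harvest are not given in the sources used here. The labels do not state whether the arrays share their RNA preparations. They were taken to, and were counted as 1 replicate per genotype, so the differences have no replicate check and no p-value is given. Because the material is bulk RNA, fewer cells of a type and less RNA per cell cannot be told apart.

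In the sterol branch, acetyl-CoA is built through mevalonate into isoprenoid units, these are joined to squalene, and squalene is closed into lanosterol and trimmed to cholesterol. In the other branch the same acetyl-CoA is lengthened into palmitate, which elongases and desaturases then modify. Much of the sterol branch is controlled by SREBP2, the product of Srebf2, and fatty acid synthesis more by SREBP1, the product of Srebf1. Both are membrane proteins of the endoplasmic reticulum that SCAP carries to the Golgi for cleavage when sterols are low, and INSIG proteins hold SCAP back when sterols are plentiful.

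Lats2 itself went against the labels. Of its 4 probes, on chromosome 14, 3 were higher in the RNA labelled KO (mean log2 ratios of 0.63, 0.56 and 0.56) and 1 was lower (-0.35). The part of the gene that was deleted is not stated in the labels, so whether these probes lie in it is unknown. Every direction below therefore rests on the labels alone, and KO and WT stand for the RNAs that carry those labels. The study's supplement reports loss of the Lats2 protein in its KO MEFs by western blot. That blot does not show which RNA carries which label here. Between the arrays, the log2 ratio of a single gene had an SD of 0.139 over all genes above background in both RNAs, and of 0.147 over the members. Of the fibroblast markers measured, 10 of 10 cleared background in 1 RNA or both, and none of the 4 hepatocyte or 5 endothelial markers measured did. Markers of other cell types cleared it too. They included 3 of 5 neural (Tubb3, Nes and Ncam1), 2 of 5 muscle (Acta1 and Tnnt2) and 2 of 6 epithelial (Krt5 and Krt14). So did 3 of 6 leukocyte markers (Lyzs, Cd68 and Csf1r) and 3 of 9 adipocyte markers (Pparg, Lpl and Fabp4).

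Most members were lower in KO. Of the 30 genes, 28 had a mean log2 ratio of KO over WT below 0, as had 50.5% of all genes tested, and 26 were lower on both arrays, as were 41.4% of all genes. At least 2-fold lower on each array were 5 members (Sqle, Hmgcs1, Dhcr7, Idi1 and Sc4mol), where 2.61% of the 15877 genes above background in either RNA were. At 1.4-fold on each array, 17 members (56.7%) were lower, where 9.50% of all genes tested were. None of the 30 was higher at either size, where 2.95% of all genes were higher at 2-fold and 9.35% at 1.4-fold. Among the 9606 genes at least as bright as the dimmest member, the share lower at 1.4-fold was 11.3%. That share is not matched for brightness. The dimmest member lay at percentile 39.5 of the genes tested and the members' median at percentile 81.9. Of the members, 27 were brighter than the median gene tested. The members' median log2 ratio was -0.62 and that of all genes -0.0037. Their summed signal was 158246 and 147979 units in KO on the 2 arrays and 290361 and 278887 in WT.

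**Figure D1:**
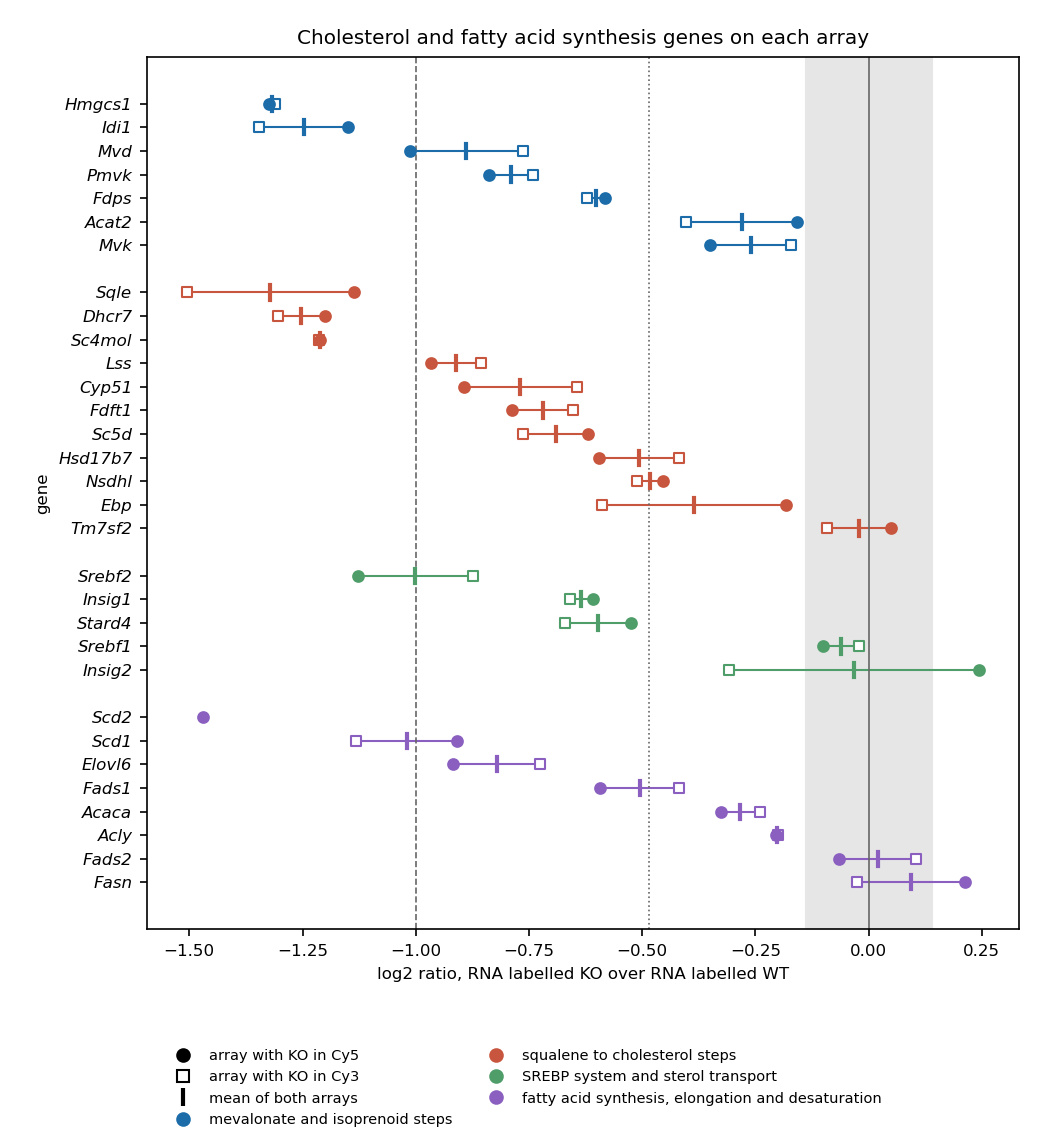
Log2 ratio of KO over WT (x axis) of each of the 31 genes (y axis), grouped by role, on the array with KO in Cy5 (filled circle) and the array with KO in Cy3 (open square), with the mean of both as a bar. The grey band is the SD of 0.139 between arrays on either side of 0, and the dotted and dashed lines mark 1.4-fold and 2-fold lower; Scd2 has a value on the first array only, and 5 genes lie past the dashed line on both arrays.

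Promoter sequences are shown for 4 of the 5 genes past 2-fold and for Srebf2 and Insig1, which belong to the control of the pathway, since the factors that drive these genes act through short elements next to the transcription start. Sequences are RefSeq's for GRCm38.p6, and 24 of the 31 members had an entry. Each line gives the 250 bases before an annotated start, 5′ to 3′ on the gene's strand. Capitals mark a sterol regulatory element core (TCACNCCAC, the SREBP site) or a CCAAT box (CCAAT, bound by NF-Y, which works with SREBPs), read on either strand, so that ATTGG is a CCAAT box on the opposite strand. Of 3 starts listed for Dhcr7, the one whose window holds CCAAT boxes is given.
Hmgcs1 promoter, chr13:119690101-119690350, + strand: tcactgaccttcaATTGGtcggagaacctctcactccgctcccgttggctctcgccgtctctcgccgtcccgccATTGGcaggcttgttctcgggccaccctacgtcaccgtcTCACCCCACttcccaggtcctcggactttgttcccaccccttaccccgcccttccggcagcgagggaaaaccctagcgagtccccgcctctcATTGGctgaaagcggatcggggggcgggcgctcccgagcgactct
Idi1 promoter, chr13:8885356-8885605, + strand: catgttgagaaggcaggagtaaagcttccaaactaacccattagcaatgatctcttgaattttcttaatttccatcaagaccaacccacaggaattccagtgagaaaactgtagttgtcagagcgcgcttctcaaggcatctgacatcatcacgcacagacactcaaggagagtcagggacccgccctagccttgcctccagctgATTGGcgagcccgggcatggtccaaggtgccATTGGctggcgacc
Dhcr7 promoter, chr7:143829964-143830213, + strand: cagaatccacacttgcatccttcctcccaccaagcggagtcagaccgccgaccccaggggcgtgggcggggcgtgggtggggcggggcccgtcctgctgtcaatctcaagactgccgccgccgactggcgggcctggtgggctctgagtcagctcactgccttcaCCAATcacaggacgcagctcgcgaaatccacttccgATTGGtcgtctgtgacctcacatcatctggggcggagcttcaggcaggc
Sc4mol promoter, chr8:64733579-64733828, - strand: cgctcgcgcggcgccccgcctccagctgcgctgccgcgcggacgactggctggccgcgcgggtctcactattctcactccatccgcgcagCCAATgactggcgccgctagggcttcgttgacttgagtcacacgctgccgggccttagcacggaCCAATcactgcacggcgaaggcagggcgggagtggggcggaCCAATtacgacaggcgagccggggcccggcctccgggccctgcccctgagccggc
Srebf2 promoter, chr15:82147019-82147268, + strand: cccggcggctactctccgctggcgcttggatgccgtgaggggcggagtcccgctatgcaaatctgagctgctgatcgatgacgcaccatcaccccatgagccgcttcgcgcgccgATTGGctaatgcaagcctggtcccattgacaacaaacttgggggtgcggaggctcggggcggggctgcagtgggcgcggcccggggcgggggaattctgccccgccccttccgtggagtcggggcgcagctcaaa
Insig1 promoter, chr5:28071162-28071411, + strand: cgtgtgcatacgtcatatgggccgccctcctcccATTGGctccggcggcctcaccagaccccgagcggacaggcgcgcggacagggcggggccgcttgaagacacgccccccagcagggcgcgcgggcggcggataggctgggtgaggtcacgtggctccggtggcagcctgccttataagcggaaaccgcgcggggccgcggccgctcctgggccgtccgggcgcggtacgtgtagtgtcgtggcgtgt

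The core spelled TCACNCCAC was found in 1 of the 24 members, Hmgcs1, where it reads TCACCCCAC and begins 137 bases before the start. In windows from 250 bases before to 50 after the start, 1.44% of 27025 genes held it, a gene being counted once if the window of any of its starts did. The same letters in the other members may lie outside the window or differ from this spelling. CCAAT boxes were in 20 of the 24 members, and in 11 of the 12 that were at least 1.4-fold lower and had an entry, where 41.1% of all genes had one. Within the stretches printed, Hmgcs1 and Sc4mol hold 3 each, Idi1 and Dhcr7 hold 2, and Srebf2 and Insig1 hold 1. The GC box GGGCGG, bound by Sp1, was in 20 of 24 members, 10 of them among the same 12, against 38.2% of genes. The E-box CACGTG, which reads the same on both strands, was in 4 members (Dhcr7, Hsd17b7, Sc5d and Insig1), 3 of them among the 12, against 8.09%. The Dhcr7 E-box lies in the window of another annotated start and not in the stretch printed. None of the 4 motifs contains another. A match is a description of the letters and not a site shown to be bound.

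The mevalonate and isoprenoid genes were lower as a group, with a median log2 ratio of -0.79. All 7 were lower on both arrays, where 41.4% of all genes were, and 5 passed 1.4-fold, where 9.50% did. Hmgcs1, the cytosolic synthase that makes HMG-CoA, had normalised signals of 12349 units in KO and 30902 in WT on the array with KO in Cy5, and 10533 and 26123 on the array with KO in Cy3. KO was below WT on both arrays by nearly the same ratio, at log2 ratios of -1.32 and -1.31, or 40.1% of the WT level. Its dimmer probes gave -1.02 and -0.96. The files place the Hmgcs1 probes on an unplaced piece of chromosome 13 in the NCBI36 (mm8) build, positions 114807 to 114866 for the probe that stands for the gene.

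Idi1, the isomerase that interconverts the isoprenoid building units, had signals of 9052 in KO and 20078 in WT on the first array, with 8592 and 21845 on the second. The log2 ratios were -1.15 and -1.35, with a mean of -1.25, and the dimmer probe gave -1.13. Both WT values were above both KO values. The files put these probes on chromosome 2 (53516550 to 53516609), whereas the reference table has Idi1 on chromosome 13, so the gene name rests on the accession and name in the files.

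Between these enzymes in the pathway, Pmvk and Mvd, which phosphorylate and then decarboxylate the mevalonate intermediates, were lower by less. Mvd had signals of 2036 in KO and 4109 in WT with KO in Cy5, and 2260 and 3837 with KO in Cy3. Its log2 ratios of -1.01 and -0.76 averaged -0.89, so it passed 2-fold on 1 array. Pmvk had log2 ratios of -0.84 and -0.74, and its other probe, directly next to it, gave a mean of -0.72 against -0.79. Fdps, which joins the units into farnesyl diphosphate, stood at -0.60 (-0.58 and -0.62) with its brighter probe.

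The Fdps probes were the pair furthest apart of any member. The second probe, designed to the cDNA clone AK077979 and located at 89185031 to 89185090 on chromosome 3, gave -1.92 and -2.04, a difference from the brighter probe of over 1 log2 unit that was found on both arrays. Of the 17 genes with several probes above background, Fdps alone had probes over 1 log2 unit apart.

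The first steps of the branch had smaller ratios. Acat2, the thiolase that makes acetoacetyl-CoA, had signals of 318 in KO and 355 in WT on the first array, with 256 and 338 on the second, with log2 ratios of -0.16 and -0.40. Mvk, the mevalonate kinase, was at -0.26 with its brighter probe (-0.35 and -0.17) and at -0.79 with the dimmer one (-0.98 and -0.60). Neither Acat2 nor Mvk passed 1.4-fold on each array.

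**Figure D2:**
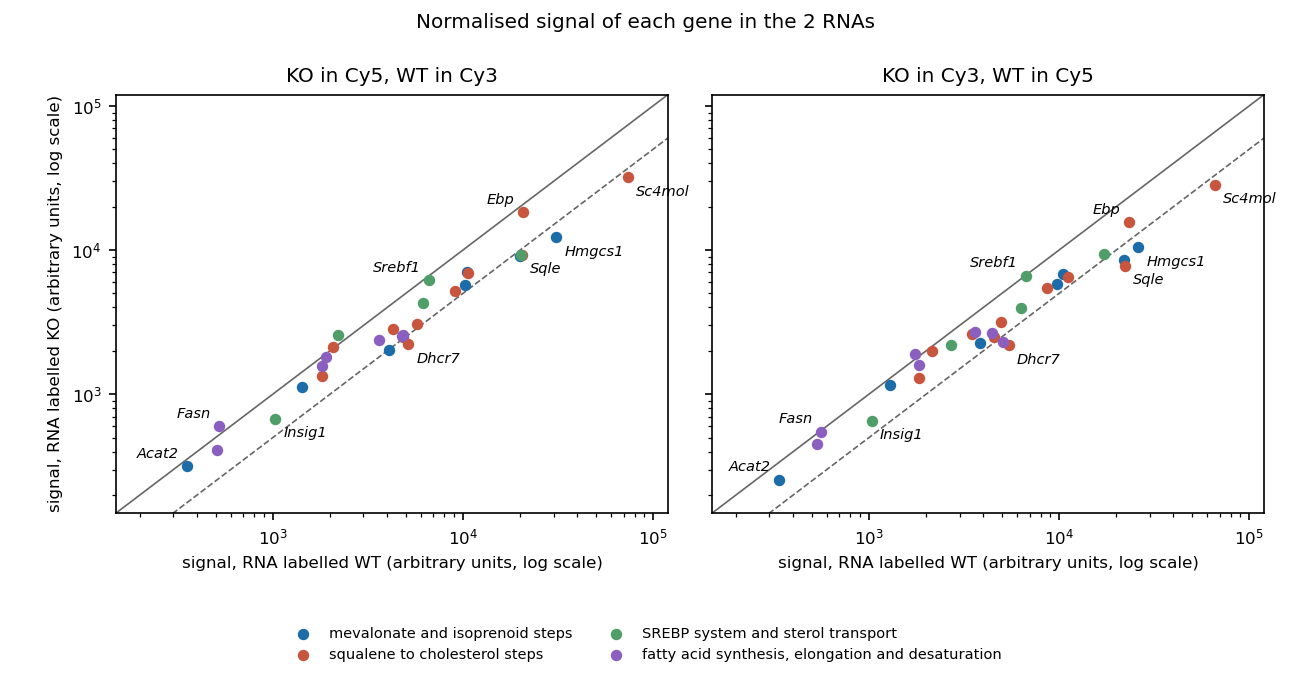
Normalised signal of each member in KO (y axis) against WT (x axis), both in arbitrary units on log scales, on the array with KO in Cy5 (left) and the array with KO in Cy3 (right). Points on the solid line are equal and points on the dashed line are 2-fold lower in KO; Sc4mol, Hmgcs1, Sqle and Dhcr7 lie below the dashed line in both panels, and Srebf1 lies next to the solid line.

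The genes from squalene to cholesterol had a median of -0.72. Of 11, 10 were lower on both arrays, where 41.4% of all genes were. At 1.4-fold 7 passed, where 9.50% of all genes did, and at 2-fold 3 passed, where 2.61% did. Sqle, the squalene epoxidase and a rate-limiting enzyme of the branch, had signals of 9282 in KO and 20415 in WT with KO in Cy5, and 7810 and 22180 with KO in Cy3. It had the lowest mean of all members, -1.32 (40.0% of WT), from single-array values of -1.14 and -1.51 that differed by more than the usual spread. Its only probe lies at 59160510 to 59160569 on chromosome 15, and 1.49% of all genes tested had a lower mean.

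Sc4mol, named Msmo1 in the reference table, encodes the oxidase that starts removal of methyl groups from the sterol ring. Its signals were 31880 in KO and 73793 in WT on the first array, with 28388 and 65805 on the second. Both arrays gave a log2 ratio of -1.21, or 43.2% of WT. Nsdhl and Hsd17b7, which complete the same removal, were lower by less, at -0.48 (-0.46 and -0.51) and -0.51 (-0.59 and -0.42). Their remaining probes above background were also lower, from -0.55 to -1.46 for Nsdhl and at -0.70 for Hsd17b7. The Nsdhl probe at -1.46, designed to the clone AK156993, lies on the X chromosome at 69193793 to 69193852, whereas the probes for the reference transcript gave -0.48 to -0.62.

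Dhcr7, the reductase of the last step, had signals of 2238 in KO and 5144 in WT with KO in Cy5, and 2198 and 5429 with KO in Cy3. The log2 ratios of -1.20 and -1.30 averaged -1.25, and its dimmer probe gave -0.94. Sc5d, the desaturase that acts before it, was at -0.69 (-0.62 and -0.76), with a probe for the clone AK080673 at -0.27. Ebp, the sterol isomerase of the same stretch, was at -0.39, and its arrays were far apart at -0.18 and -0.59.

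At the entry of the branch, Fdft1, the squalene synthase, was at -0.72 (-0.79 and -0.65). Its second probe was dim and gave 0.10, the opposite sign. Lss, which closes squalene epoxide into lanosterol, was at -0.91 (-0.97 and -0.86), and its other probes gave -0.90 and -0.79. Cyp51, the lanosterol demethylase, was at -0.77 (-0.89 and -0.64), with -0.76 and -0.71 from its other probes. Lss and Cyp51 were each lower with 3 of 3 probes on both arrays. Tm7sf2, a sterol reductase, did not share the direction on both arrays, with signals of 2137 in KO and 2065 in WT on the first, with 2003 and 2136 on the second, and its mean was -0.02.

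**Figure D3:**
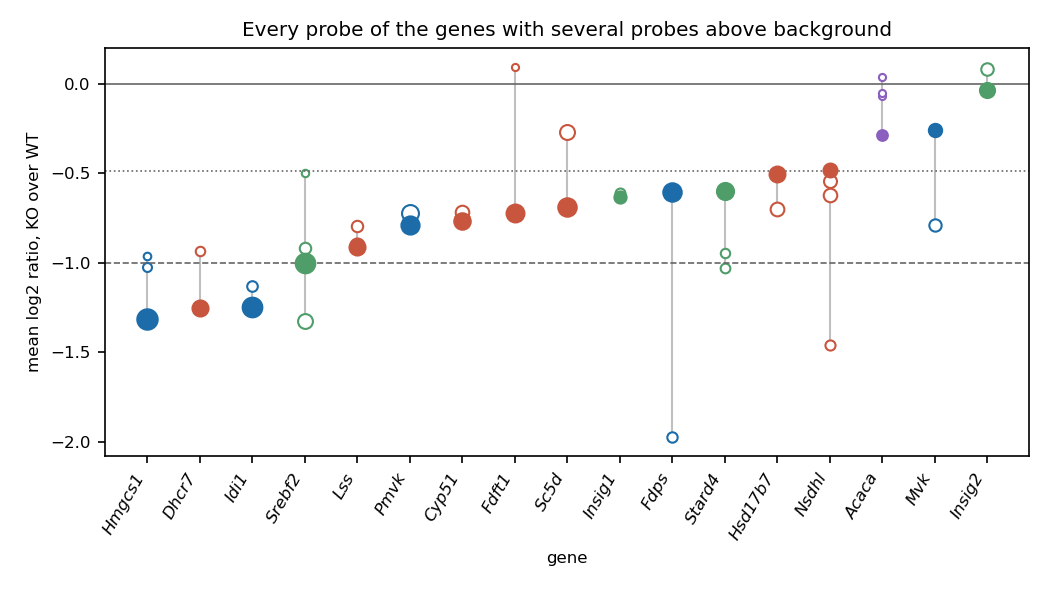
Mean log2 ratio of KO over WT (y axis) of every probe well above background, for the 17 members with several such probes (x axis), with larger circles for brighter probes. Filled circles are the probe that stands for the gene, colours are the roles as in the plot of members by array, and the dotted and dashed lines mark 1.4-fold and 2-fold lower; the probes of Fdps lie furthest apart, from -0.60 to -1.98.

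Over all probes of the members, 57 were well above background in both RNAs. Of these, 52 had a mean below 0, 49 were lower on both arrays and 5 were higher on average. Probes of the same gene are not independent, and the share over all probes of the array was not computed. Among the 17 genes with several such probes the median range between probes was 0.32 log2 units, and in 3 genes (Fdft1, Acaca and Insig2) the probes differed in sign.

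The genes that control the pathway were split. Srebf2, the factor of the sterol branch, had signals of 9253 in KO and 20226 in WT with KO in Cy5, and 9370 and 17169 with KO in Cy3. The log2 ratios of -1.13 and -0.87 averaged -1.001, or 49.97% of WT, and the other 3 probes gave -1.33, -0.92 and -0.50. All 4 Srebf2 probes were therefore lower. Srebf1, the factor of the fatty acid branch, had signals of 6183 and 6627 on the first array, with 6639 and 6735 on the second, a mean of -0.06 that lay within the spread between arrays.

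Insig1, which retains SCAP in the endoplasmic reticulum and is itself an SREBP target, had signals of 678 in KO and 1034 in WT on the first array, with 655 and 1035 on the second. Its log2 ratios were -0.61 and -0.66, and its other probe gave -0.61. Insig2, its paralogue, had ratios of 0.24 and -0.31 on the 2 arrays, so no direction could be given. Its second probe above background, for another transcript, gave 0.08. Stard4, a carrier that moves cholesterol between membranes, was at -0.60 (-0.52 and -0.67), and its dimmer probes gave -1.03 and -0.95.

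The fatty acid genes had a median of -0.28 over the 7 with a value. Of these 7, 5 were lower on both arrays, where 41.4% of all genes were, and 2 passed 1.4-fold, where 9.50% did. Those that passed, Scd1 and Elovl6, act on finished fatty acids. With the mean over all probes of each gene the median was -0.16. Scd1, the desaturase that makes oleate, had signals of 2569 in KO and 4819 in WT with KO in Cy5, and 2302 and 5046 with KO in Cy3, and its log2 ratios were -0.91 and -1.13. Elovl6, which lengthens palmitate, had signals of 2537 and 4790 on the first array, with 2676 and 4423 on the second, and log2 ratios of -0.92 and -0.72.

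Scd2, the second stearoyl-CoA desaturase measured, has 1 probe, and its spot was flagged as non-uniform in the red channel of the array with KO in Cy3. The other array gave -1.47. With the flagged spot kept the arrays gave -1.51 and -1.15. Scd2 is in none of the counts above.

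The enzymes that make palmitate did not pass 1.4-fold. Acly, which releases acetyl-CoA from citrate, had signals of 1572 in KO and 1811 in WT on the first array, with 1599 and 1838 on the second, and both log2 ratios were -0.20. Acaca, the acetyl-CoA carboxylase, was at -0.28 (-0.33 and -0.24) with its brightest probe, and its 3 dimmer probes gave -0.07 to 0.04. Fasn, the fatty acid synthase, had signals of 602 in KO and 520 in WT on the first array, with 550 and 560 on the second, a mean of 0.09 without a common direction. The brighter Fasn probe was flagged on the array with KO in Cy3, and with flagged spots kept it gave -0.18 and -0.20.

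Fads1 and Fads2, the desaturases of polyunsaturated fatty acids, are neighbours on chromosome 19. Fads1 was lower, with signals of 2395 in KO and 3610 in WT on the first array, with 2713 and 3626 on the second, and log2 ratios of -0.59 and -0.42. Fads2 had ratios of -0.07 and 0.10, with no common direction. Fads1 passed 1.4-fold on 1 array and Fads2 on neither.

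**Figure D4:**
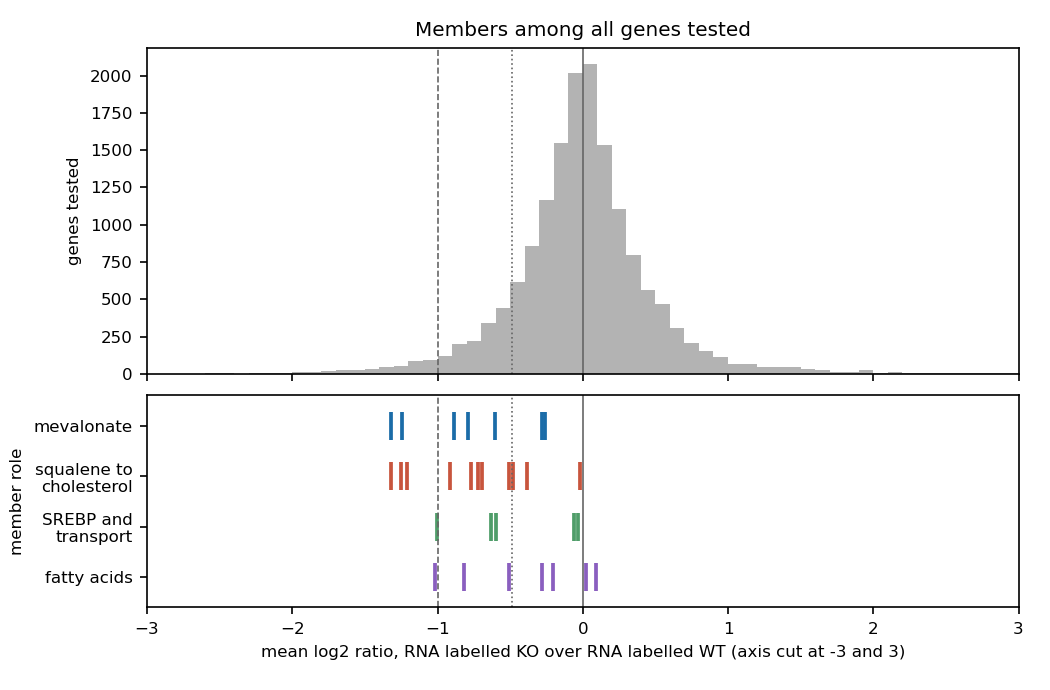
Top, number of genes (y axis) by mean log2 ratio of KO over WT (x axis, from -3 to 3) for the 15877 genes tested. Bottom, each tick is 1 of the 30 members in the row of its role; 28 of the ticks lie left of the solid line at 0, and the dotted and dashed lines mark 1.4-fold and 2-fold lower.

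Other genes of the same pathways were taken from lists that do not overlap the members. Of 8 further genes of isoprenoid and sterol synthesis, 3 were at least 1.4-fold lower and 1 was higher, with a median of -0.22 (-0.33 and -0.18 on the single arrays). Over all genes tested 9.50% were lower and 9.35% higher at this size, which holds for the lists that follow too. Among those lower was Dhdds (-0.64), of the dolichol branch. Por (0.58), which supplies electrons to enzymes such as Cyp51, was higher.

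Among 25 genes of sterol sensing, uptake, storage and efflux above background, 5 were at least 1.4-fold lower and 4 higher, and the median was -0.07 (-0.03 and -0.11 on the single arrays, and -0.14 by Feature Extraction's own ratio). Among those lower were Abca1 (-0.89) and Abcg1, which export cholesterol, and Tmem97 (-0.53). Abcg1 did not clear background in KO on both arrays, so no ratio is given. Higher were Scarb1 (0.97), a receptor for HDL, Soat1 (0.67), which esterifies cholesterol, Npc1 (0.63), which releases it from lysosomes, and Vldlr (0.59).

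Of 23 further genes of fatty acid and glycerolipid synthesis above background, 5 were at least 1.4-fold lower, 4 were higher and the median was -0.29. The median was smaller on the single arrays, at -0.23 on the first and -0.18 on the second over these 23 genes, and at -0.21 and -0.16 over the genes above background on that array. Lower were Acsl3 (-1.47) and Acss2 (-0.95), which activate fatty acids and acetate with coenzyme A, Lpin1 (-0.84), Elovl4 (-0.81) and Mid1ip1 (-0.63), which promotes the activity of acetyl-CoA carboxylase. Higher were the elongation genes Elovl7 (1.28) and Hsd17b12 (1.07), the second carboxylase gene Acacb (0.74) and Fads3 (0.60).

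**Figure D5:**
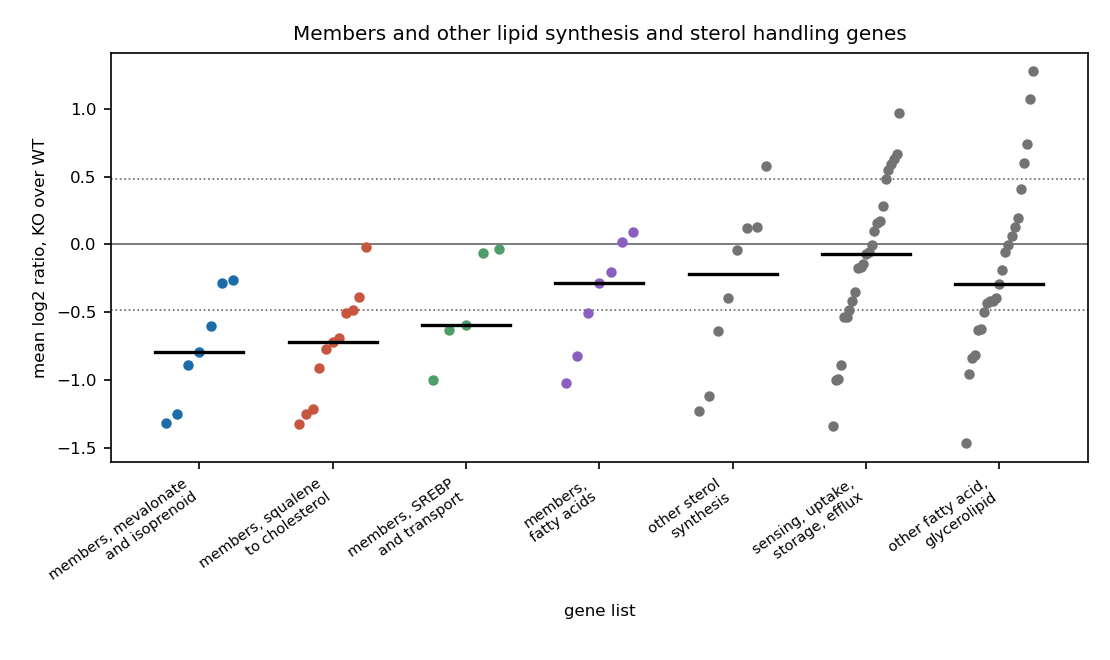
Mean log2 ratio of KO over WT (y axis) for the members by role (coloured) and for other genes of the same pathways (grey), by list (x axis), with each point 1 gene above background, points sorted within a list and the bar its median. The dotted lines mark 1.4-fold in either direction; the medians of the members' groups run from -0.79 to -0.28 and those of the other lists, as averaged over both arrays, from -0.29 to -0.07, and every grey list has genes on both sides of the dotted lines.

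Other markers moved in the same RNAs. Of 10 fibroblast markers, 2 were at least 1.4-fold lower, Col1a1 (-0.56) and Vim, and 1 was higher, Fn1 (0.89). Of all genes 9.50% were lower and 9.35% higher at this size. Vim did not clear background in KO on both arrays, so no ratio is given. The median of the fibroblast list was -0.33. Of the adipocyte list, Pparg (2.83), Lpl (2.78) and Fabp4 were higher in KO, Fabp4 without clearing background in WT on both arrays. The other 6 markers measured (Adipoq, Plin, Cidec, Lep, Retn and Cfd) were not well above background. The summed signal of the list was 5724 and 5050 in KO against 1150 and 1178 in WT. Of 11 proliferation markers, 6 were at least 1.4-fold lower, among them Mki67 (-1.78), and 1 was higher, Rrm2 (1.19), where 9.50% and 9.35% of all genes were, with a summed signal of 84386 and 80438 in KO against 132552 and 131105 in WT. Of the leukocyte list, Lyzs (1.105) was higher, Cd68 (0.14) and Csf1r (-0.05) did not pass 1.4-fold, and Ptprc, Emr1 and Itgam were not well above background. That list summed to 1678 and 1639 in KO against 1002 and 955 in WT. Of the neural and muscle markers, Ncam1 (-0.41), Nes (-0.30), Tubb3 (-0.11) and Acta1 (0.26) did not pass 1.4-fold and Tnnt2 (0.66) was higher. The neural list summed to 12937 and 12770 in KO against 15984 and 17657 in WT. The muscle list summed to 12326 and 12401 against 10118 and 10252. All these sums count every marker measured, also those not above background, and single bright probes carry most of several. On the first array Ncam1 had 11623 in KO and 14612 in WT, Acta1 11377 and 9459, and Lyzs 1292 and 600. Pparg (2438 and 323) and Lpl (2748 and 347) made up most of the adipocyte sum. The sums are therefore not shifts of whole lists. Krt5 (0.01) and Krt14 (-0.08) of the epithelial list were dim and near equal in both RNAs. Sox2 and Gfap, and Myod1, Myog and Des, were not well above background. The part of these markers in the lower levels of the sterol genes was not tested.

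The calls depended on removing the dye effect within each array. With each array only centred on its median, the members' median log2 ratio was 0.31 on the array with KO in Cy5 and -1.47 on the other, so that no member passed 1.4-fold lower on both. The mean over both arrays, in which the dyes are balanced, was still below 0 for 25 of the 30 members, with a median of -0.57.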

How the data were processed

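Transcript levels of MEFs labelled LATS2-/- and LATS2+/+ were measured on 2 Agilent 2-colour arrays of 1 slide with exchanged dyes. Per the file headers and the submitters' processing notes the scans were read with Agilent Feature Extraction 10.5.1.1, and the authors deposited mean signals and median local backgrounds as intensity in arbitrary units, with flags for background and outliers. The deposited files also hold Feature Extraction's log10 ratio of Cy5 over Cy3, and the authors deposited a table of log2 ratios, which matched KO over WT of the processed signals. Both were used as alternatives.

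Background was removed by normexp with an offset of 50 (limma 3.58.1, R 4.3.3), and signals were normalised by loess within each array, with control and outlier-flagged spots left out. The offset draws the ratios of dim probes towards 0. Ratios of the array with KO in Cy3 were turned, and both arrays were averaged. Signals per RNA are after loess and Aquantile scaling between arrays. A gene with several probes is given by its brightest one, and levels of different probes are not comparable. A gene was tested when its probe was well above background (in a share of at least 0.5 of its spots) on both arrays in at least 1 RNA. A call needed the stated fold in 1 direction on each array and signal above background on both arrays in the RNA where the gene was higher. The 2-fold threshold is that of the methods for these arrays and the 1.4-fold one that of other arrays of the study.

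The rule for names was all members, and of the other lists the genes past 1.4-fold, some of which are not reported here. Promoters printed are 6 of those of the 12 members past 1.4-fold with an entry, chosen after values were seen. The members and all lists were chosen with earlier results of these data known. Probe positions are the files' (mm8), their place in exons was not analysed here, and promoters and updated names come from a RefSeq table (GRCm38.p6). Further steps used pandas 2.3.3, scipy 1.17.1, numpy 2.4.6 and matplotlib 3.10.9 under Python 3.11.15. The normalisation and a 1.4-fold cut on both arrays were tried on simulated data, without outlier flags and without the rule on background. The full calling step was not tested in this way. The number of arrays limits the precision.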

Additional observations from a re-analysis of the deposited data

How the results depend on the processing

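Each member's ratio was recomputed under 9 other settings, which gave 270 values. Of these, 250 stayed within the SD between arrays of the reported value and 20 moved, 12 to a larger and 8 to a smaller size. In all 12 changed sign, in genes with no call. The settings are not separate checks. Feature Extraction's own ratio and the authors' table gave the same values to rounding, and the single arrays make up the reported mean. Of 124 values for counts and list medians, 120 stayed close to those reported. The exceptions came from median centring and from a t-test. Median centring in place of loess, which leaves the intensity-dependent dye effect in each array, gave 0 members lower at 1.4-fold and 0 at 2-fold. The shares of all genes were 2.75% and 0.87%. A t-test on the log2 ratios of the 2 arrays, at the methods' threshold without adjustment, left 3 members lower at 2-fold. By it 2.25% of all genes tested were lower. After Benjamini-Hochberg adjustment over all genes tested, 0 members and 0.0% of all genes were left. The adjusted count therefore says nothing about the members. The t-test takes the 2 arrays, counted here as 1 replicate, as replicates, so it does not test the difference between genotypes. On single arrays 6 and 7 members were lower at 2-fold and 19 on each at 1.4-fold. With Feature Extraction's own ratio 17 members were lower at 1.4-fold and 5 at 2-fold, but the shares of all genes rose to 14.7% and 5.42% from 9.50% and 2.61%. The members' median ran from -0.68 to -0.57. The mean over all probes moved Fdps to -1.29, Nsdhl to -0.78, Mvk to -0.52 and Fdft1 to -0.31. Fasn stood at -0.20 by Feature Extraction's ratio and -0.19 with flagged spots kept. No paired analysis was possible because there is only 1 replicate per genotype, and the slide could not be fitted as a block because both arrays lie on 1 slide. If both arrays hold the same pair of RNAs, which the labels do not state, the spread covers hybridisation and dye error only.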
